A study of Mus musculus with 15 samples.

Results

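Cytosolic ribosomal protein genes code for the proteins that, with ribosomal RNA, build the large and the small subunit of the cytoplasmic ribosome. They were described here in mouse hearts profiled on Agilent whole-genome arrays that compare 2 dyes on each array. The genes were chosen by name: Rpl or Rps followed by a digit, together with Rplp0, Rplp1, Rplp2 and Rpsa, without S6 kinases and without related sequences or pseudogenes. Each gene was represented by the probe with the brightest mean heart signal. This gave 82 genes out of 18680 genes with a tested probe, 49 with large subunit names and 33 with small subunit names. Rps19bp1 met the naming rule, although it codes for a protein that binds Rps19 and not for a ribosomal protein. The array held 137 probes for the 82 genes, and all 82 gave a signal well above background in both dyes on all 15 arrays.

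Whole-heart RNA came from rosiglitazone-treated db/db mice, untreated db/db mice and db/+ mice, with 5 hearts in each group. The db/db mice (C57BL/KLS-leprdb/leprdb) carry 2 mutated copies of the leptin receptor gene and become obese and diabetic, whereas the db/+ littermates (C57BL/KLS-leprdb/lepr+) carry 1 mutated copy and served as non-diabetic controls. Treated mice received rosiglitazone, an agonist of PPARγ, at 5 mg/kg/day in normal chow, and RNA was taken after 4 months with or without treatment. The receptor mutation is present in every tissue of the db/db mice, and the age of the array mice is not given in the sources used here. Heart RNA was labelled with Cy5 and set against Universal Mouse Reference RNA, a pool of RNA from mouse cell lines, labelled with Cy3. All levels below are log2 ratios of heart to this reference, and each array was centred by its normalization. A low ratio therefore means a low level in heart against the reference, relative to the heart-to-reference ratios of the other RNAs on that array.

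Ribosomal proteins are made in nearly equal numbers, since each ribosome holds most of them once, and their genes are among the most strongly transcribed in any cell. Their mRNAs typically begin with a run of pyrimidines at the 5′ end, the 5′ terminal oligopyrimidine tract, through which mTOR signalling sets how much of each mRNA is translated. In heart and skeletal muscle a paralogue, Rpl3l, can take the place of Rpl3 in the ribosome.

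Promoter windows from RefSeq (GRCm38.p6) covered 61 of the 81 genes left after Rps19bp1, with 250 bases before and 50 after each annotated start. At least 1 of 3 overlapping pyrimidine motifs, with the letters CTTTCC in the first, CTCTTT in the next and CCTTTC in the last, searched on the gene strand, lay within 50 bases of the start in 36 of the 61 genes, 59.0%, against 11.9% of 27025 genes with a window. The ETS-like motif CCGGAAG, searched on both strands of the whole window, was found in 39.3% of the ribosomal protein genes and in 9.93% of all genes. GGGCGG, also searched on both strands, was found in 62.3% against 38.2%, and TATAAA in the 50 bases before the start was found in 1 gene (1.64%) against 3.15%. A match describes these letters only. The start regions of 6 genes from both subunits are shown because they carry the pyrimidine run (in capitals) that the family is known for. They lie at chr4:86857349-86857378 (minus strand, Rps6), chr3:90213632-90213661 (minus, Rps27), chr11:114668568-114668597 (plus, Rpl38), chr7:141447636-141447665 (plus, Rplp2), chr7:45128722-45128751 (minus, Rpl13a) and chr10:128626485-128626514 (minus, Rps26).
Rps6: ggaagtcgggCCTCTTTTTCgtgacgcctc
Rps27: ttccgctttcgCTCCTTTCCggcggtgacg
Rpl38: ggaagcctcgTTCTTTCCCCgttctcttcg
Rplp2: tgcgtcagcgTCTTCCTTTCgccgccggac
Rpl13a: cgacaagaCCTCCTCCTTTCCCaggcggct
Rps26: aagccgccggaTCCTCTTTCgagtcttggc

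Over all arrays, 27593 of 41174 probes passed the filter on dim signals and were tested. Between treated hearts 3 and 4, the log2 differences in heart signal had a scaled median absolute deviation of 0.144. This was less than for any other pair of hearts of a group (0.268 for the next). The mean of hearts 3 and 4 therefore entered as 1 sample, and the fit held 4 treated, 5 untreated and 5 db/+ samples. The arrays lay on 4 slides that largely follow the groups. Slide 1 held db/+ hearts 1 to 4, slide 2 held untreated hearts 1 to 3 and db/+ heart 5, slide 3 held treated hearts 1 and 2 and untreated hearts 4 and 5, and slide 4 held treated hearts 3 to 5. No slide held both treated and db/+ hearts. Cardiomyocyte markers were high in every heart, with a median log2 ratio of 5.2 to 5.73 in treated, 4.12 to 6.05 in untreated and 3.06 (heart 2) to 6.93 (heart 3) in db/+ hearts. RNA of other cell types differed between hearts: the summed signal of 9 hepatocyte markers was 6530 to 18600 in treated, 6860 to 181000 (heart 2) in untreated and 3110 to 6720 in db/+ hearts.

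The ribosomal protein genes were bright and low relative to the reference. Their mean heart signal ran over all arrays between 2440 and 526700 arbitrary units with a median of 120000, at percentile 98.3 of all tested probes, and none was saturated. The median log2 ratio over the 82 genes was −1.58, −1.58, −1.46, −1.38 and −1.42 in treated hearts 1 to 5, −0.95, −1.27, −1.07, −1.48 and −1.09 in untreated hearts, and −1.16, −1.06, −0.67, −0.69 and −1.18 in db/+ hearts. The treated hearts lay below all db/+ hearts, and untreated heart 4 lay within the range of the treated ones. The group means were −1.50 ± 0.10 (SD, n = 4) in treated, −1.17 ± 0.21 (SD, n = 5) in untreated and −0.95 ± 0.25 (SD, n = 5) in db/+ hearts.

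The genes moved together from heart to heart. In treated hearts 1 to 5, 4, 1, 2, 5 and 9 of the 82 genes were above their own mean over all hearts. In untreated hearts these numbers were 73, 28, 70, 3 and 45, and in db/+ hearts 57, 55, 80, 80 and 43, so the family stood high in db/+ hearts 3 and 4 and in untreated hearts 1 and 3, and low in untreated heart 4 and in every treated heart. The shift was seen in the heart dye: its median log2 signal over the genes was 16.33 to 16.53 in treated, 16.69 to 17.19 in untreated and 16.82 to 17.37 in db/+ hearts, whereas the reference dye gave 18.11 to 18.17, 18.10 to 18.25 and 18.03 to 18.20. Within a group, the median SD of a ribosomal protein gene was 0.14 in treated, 0.26 in untreated and 0.33 in db/+ hearts, beside 0.16, 0.21 and 0.27 for all tested probes.

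**Figure D1:**
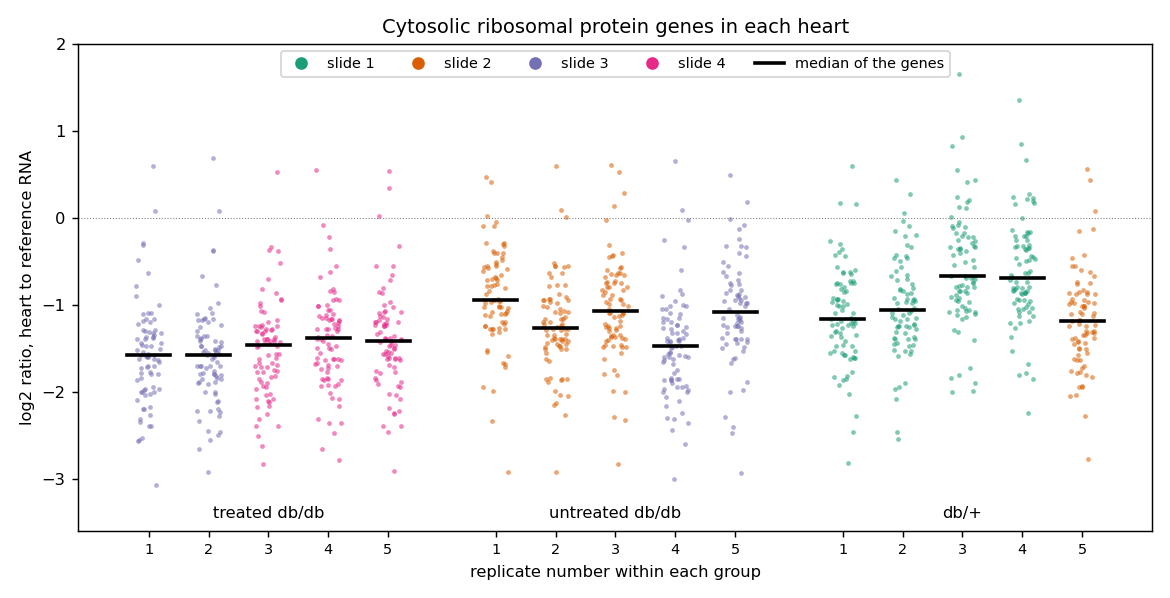
Log2 ratio of heart to reference RNA (y axis) of each ribosomal protein gene (points) in each of the 15 hearts (x axis, replicate number within group), coloured by slide, with the median over the 82 genes as a bar; Rpl3l, at 4.13 to 6.99, lies above the plotted range. The medians of the treated hearts run between −1.58 and −1.38, below those of the db/+ hearts at −1.18 to −0.67, while the untreated hearts spread over −1.48 to −0.95.

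Treated db/db hearts had lower ribosomal protein mRNA than db/+ hearts across both subunits. In the limma fit, 42 of the 82 genes (51.2%) were lower at a Benjamini-Hochberg adjusted p under 0.05, where 4.21% of all tested probes were lower, and 0 were higher, where 4.49% of all probes were. The median difference was −0.61 (a fold of 0.66; quartiles −0.74 and −0.46), beside 0.01 for all tested probes, and 81 of the 82 genes were below 0, beside 49.2% of all probes. Large and small subunit genes were alike in size, with medians of −0.61 and −0.60 and 25 of 49 and 17 of 33 called. Without Rps19bp1, itself called, 41 of 81 were called. Every treated array was below every db/+ array for 47 of the 82 genes (57.3%), beside 5.90% of all tested probes, and this held for 37 of the 42 called genes. In this and the like counts below, a probe with a missing value in either group was counted as overlapping. In bulk tissue, fewer cells of a type and less RNA per cell cannot be told apart.

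The count of 42 depended on slides and on single hearts. With slide as a fixed block, which reaches treated against db/+ only through the untreated hearts, 0 genes were called, the median difference was −0.17 and 69 of the 82 genes were below 0, while 4 of all 27593 probes were called in either direction. Rpl10, Rpl5, Rpl7 and Rpl9 lost their call in no alternative other than this one. The count was 8 without treated heart 2, 11 without treated heart 1, 14 without treated heart 5, 13 without db/+ heart 4 and 21 without db/+ heart 3, and the median stayed between −0.69 and −0.51 whichever heart was left out. Lower calls over all 27593 probes also became fewer, 544, 469, 493, 585 and 871 in the same order, against 1162 with all hearts. Normexp background correction left 12 genes called with 452 of all probes lower and 1023 higher, against 1162 lower and 1239 higher as deposited.

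**Figure D2:**
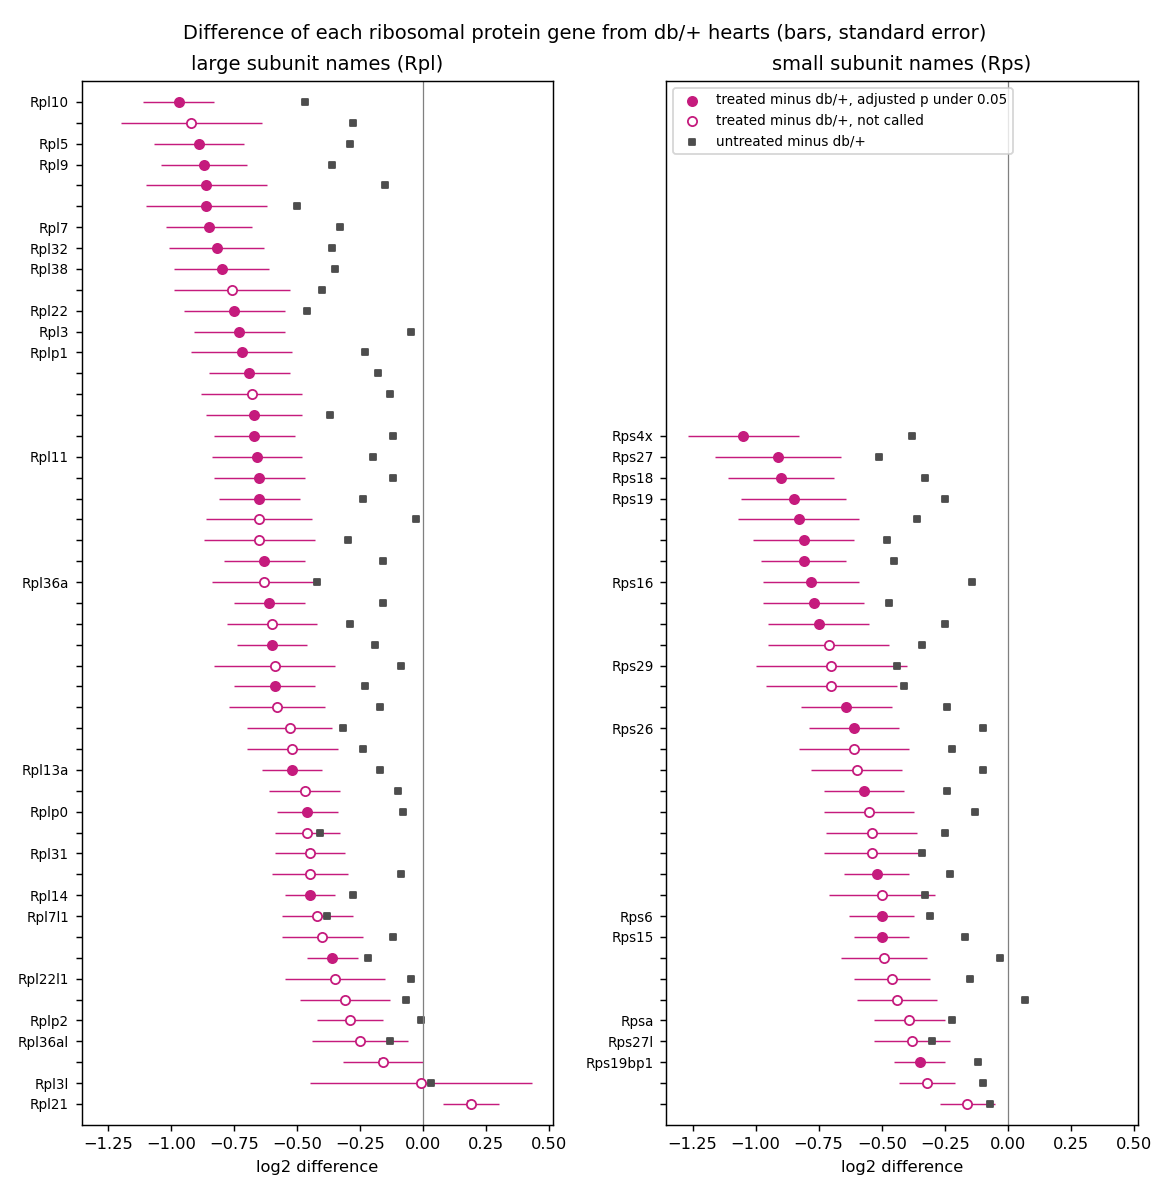
Log2 difference (x axis) of each ribosomal protein gene (rows, large subunit names left, small subunit names right) for treated minus db/+ hearts (circles with standard error, filled where the adjusted p is under 0.05) and untreated minus db/+ hearts (squares); the labelled rows are genes described in the text. Treated minus db/+ differences run between −1.05 (Rps4x) and 0.19 (Rpl21), and 81 of the 82 lie left of 0.

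Treatment itself, set against untreated db/db hearts, showed the same side for nearly all genes and no call. The median difference was −0.36 (quartiles −0.50 and −0.26), beside −0.01 for all tested probes, and 81 of the 82 genes were below 0. No gene was called lower or higher by limma after Benjamini-Hochberg adjustment, but neither was any other probe (0% lower and 0% higher of 27593). At an unadjusted p under 0.05, 41 of the 82 genes were lower, where 4.78% of all probes were. All treated arrays lay below all untreated arrays for 5 genes (6.10%), namely Rpl5, Rps4x, Rps16, Rps18 and Rps19bp1, where 1.79% of all probes did. Rpl10a and Rps15, each without a value in untreated heart 5, were not counted, although their measured arrays did not overlap. SAM, the test named by the study's methods, left out genes with a missing value in the samples compared. It called 0 of the remaining genes, and 3 of all probes. Within slide 3, where 2 treated hearts stood beside 2 untreated ones, the median difference was −0.27, with 79 genes below and 3 above 0.

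Untreated db/db hearts against db/+ hearts gave the smallest shift. The median difference was −0.23 (quartiles −0.34 and −0.13), beside 0.01 for all probes, with 79 of the 82 genes below 0. Only Rpl10 was called lower (1 of 82, 1.22%), where 3.39% of all probes were lower, and 0 genes were called higher, where 4.37% were; the median thus lay below that of all probes while the share of calls did not exceed the background. With normexp correction, 947 of all probes were lower and 2109 higher, against 935 lower and 1206 higher as deposited. Rpl31 alone had every untreated array below every db/+ array, where 3.35% of all probes did. Within slide 2, where 3 untreated hearts stood beside db/+ heart 5, the median difference had the other sign, 0.11, with 22 genes below and 60 above 0. As all other db/+ hearts lay on slide 1, slide and genotype cannot be told apart in this comparison. The 3 comparisons share their samples, so their values are given side by side and their likeness is no separate result.

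**Figure D3:**
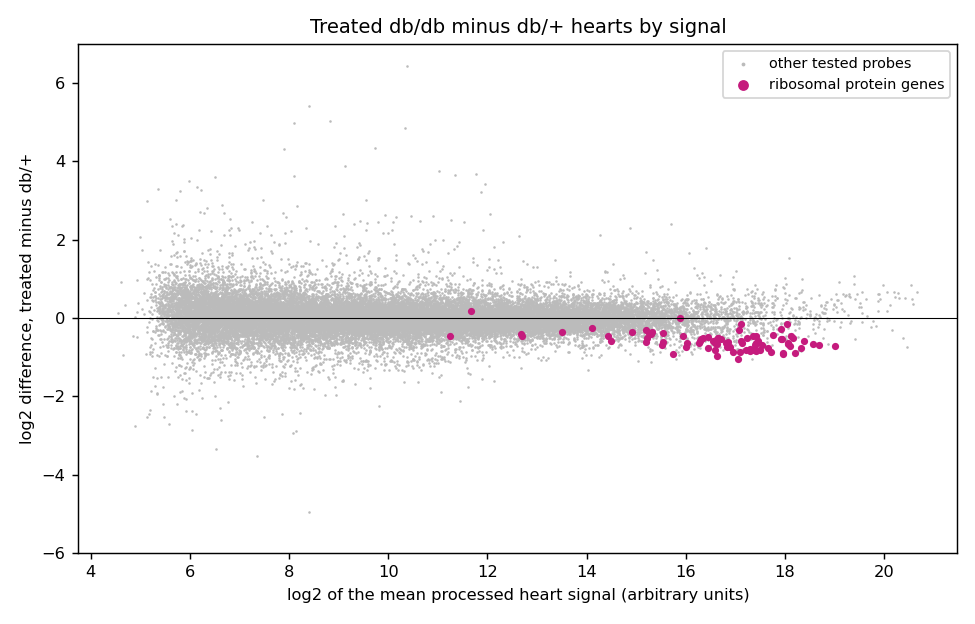
Log2 difference of treated minus db/+ hearts (y axis) against the log2 mean heart signal in arbitrary units (x axis) for all tested probes (grey) and the 82 ribosomal protein genes (magenta). The ribosomal protein genes lie among the brightest probes and mostly below 0, around their median of −0.61.

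Rpl10, which joins the large subunit late in its assembly, beside the site where tRNAs are held, had the smallest p of the family. Its log2 ratio was −2.03, −1.80, −1.77, −1.63 and −1.95 in treated hearts 1 to 5, −1.07, −1.38, −1.37, −1.84 and −1.21 in untreated hearts and −0.93, −1.12, −0.75, −0.74 and −0.97 in db/+ hearts. The treated and db/+ hearts did not overlap, whereas untreated heart 4 lay within the treated range and untreated heart 1 within the db/+ range. Rpl10 fell by 0.97 ± 0.14 (SE) in treated against db/+ hearts (limma, adjusted p = 0.0016) and by 0.47 ± 0.13 in untreated against db/+ hearts (adjusted p = 0.048). The second call is at the threshold and was kept in 9 of 32 other settings. A second Rpl10 probe gave −0.94 in treated against db/+ hearts (adjusted p = 0.0055). In untreated against db/+ hearts that probe was at −0.32 and was not called (adjusted p = 0.23). The first bases of both probes are printed because the probes differ in sequence. Each probe is 60 bases long, and whether they overlap on the mRNA was not tested. Rpl10 is on chromosome X.
Rpl10, brightest probe: ttcacattggccaggtcatcatctccatcc
Rpl10, second probe: aaccaagttgcagaacaaggaacatgtgat

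Rpl5 and Rpl11, which carry 5S ribosomal RNA into the large subunit and can bind the p53 regulator Mdm2, were both lower in treated than in db/+ hearts. Rpl5 gave −1.44, −1.51, −1.30, −1.15 and −1.24 in treated hearts, −0.61, −0.98, −0.73, −1.10 and −0.34 in untreated hearts and −0.73, −0.67, −0.05, −0.14 and −0.74 in db/+ hearts. The treated hearts lay below both other groups, which overlapped each other. The difference from db/+ hearts was −0.89 ± 0.18 (SE; limma, adjusted p = 0.011). Rpl11 was one of the few genes near the level of the reference: −0.29, −0.38, −0.38, −0.08 and 0.02 in treated hearts, 0.41, 0.01, 0.29, −0.02 and 0.49 in untreated hearts and 0.17, 0.27, 0.83, 0.85 and 0.08 in db/+ hearts. Treated heart 5 came close to db/+ heart 5 without overlap, and the difference was −0.66 ± 0.18 (adjusted p = 0.038). A second Rpl11 probe was at −0.22 without a call (0.59).

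Of the other large subunit genes, Rpl9 had −1.64, −1.58, −1.43, −1.27 and −1.46 in treated hearts, −0.49, −0.97, −1.09, −1.42 and −1.02 in untreated hearts and −0.76, −0.82, −0.25, −0.48 and −0.88 in db/+ hearts. Treated and db/+ hearts were apart, with a difference of −0.87 ± 0.17 (adjusted p = 0.0093). Rpl7 fell by 0.85 (adjusted p = 0.011; untreated heart 5 left out as an outlier-flagged spot), Rpl32 by 0.82 (0.017) and Rpl38, which in mouse embryos is needed to translate certain Hox mRNAs, by 0.80 (0.020). Of 2 further Rpl7 probes, neither was called (−0.47 at 0.11 and −0.56 at 0.076). Rpl14 fell by less, 0.45 ± 0.10, at a like adjusted p (0.016), and had an SD of 0.07 in treated and 0.17 in db/+ hearts. Rpl13a, whose human counterpart can leave the ribosome to silence inflammatory mRNAs, fell by 0.52 (0.019).

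In the small subunit the largest difference was that of Rps4x, an X-linked gene, with −1.87, −2.01, −1.75, −1.69 and −1.72 in treated hearts, −0.70, −1.45, −1.12, −1.57 and −0.98 in untreated hearts and −1.19, −0.44, −0.34, −0.63 and −1.33 in db/+ hearts. Every treated heart was below every other heart. The difference from db/+ hearts was −1.05 ± 0.22 (SE; limma, adjusted p = 0.013), a fold of 0.48, and within slide 3 treated minus untreated was −0.67. A second Rps4x probe was at −0.36 without a call (adjusted p = 0.60). Rps15 fell by 0.50 (adjusted p = 0.017; without the flagged spot of untreated heart 5), Rps27 by 0.91 (0.038) and Rps26 by 0.61 (0.049). Rps19, the gene most often mutated in the inherited anaemia Diamond-Blackfan, gave −1.71, −1.78, −1.61, −1.50 and −1.53 in treated hearts, −0.77, −1.28, −0.89, −1.55 and −0.77 in untreated hearts and −1.21, −0.76, −0.29, −0.50 and −1.23 in db/+ hearts. Its treated hearts lay below all db/+ hearts, with a difference of −0.85 ± 0.21 (adjusted p = 0.027), and untreated heart 4 lay within the treated range. A second Rps19 probe was at −0.12 and was not called (adjusted p = 0.60).

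Rps6, the ribosomal protein that S6 kinases phosphorylate, had −1.58, −1.85, −1.83, −1.64 and −1.63 in treated hearts, −1.28, −1.47, −1.39, −1.86 and −1.53 in untreated hearts and −1.42, −1.10, −1.08, −1.04 and −1.35 in db/+ hearts. Treated and db/+ hearts were apart, with a difference of −0.50 ± 0.13 (SE; limma, adjusted p = 0.028). Of the stalk proteins that bind translation factors, Rplp0 fell by 0.46 ± 0.12 (adjusted p = 0.029) and Rplp1 by 0.72 ± 0.20 (adjusted p = 0.039), whereas Rplp2 was at −0.29 and was not called (adjusted p = 0.17). Rpsa, which also serves as a laminin receptor, was at −0.39 without a call (0.093).

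Rpl3 was lower in treated than in db/+ hearts, whereas its muscle paralogue Rpl3l was not called. Rpl3 gave −2.32, −2.22, −2.18, −1.93 and −1.91 in treated hearts, −1.03, −1.51, −1.49, −1.95 and −1.27 in untreated hearts and −1.61, −1.25, −1.11, −1.27 and −1.76 in db/+ hearts. Treated hearts lay below the db/+ hearts and, but for untreated heart 4, below the untreated ones; the difference was −0.73 ± 0.18 (SE; limma, adjusted p = 0.025) from db/+ and −0.68 (adjusted p = 0.41, the smallest p of the family in that comparison) from untreated hearts. Rpl3l gave 5.54, 5.67, 5.59, 5.74 and 5.98 in treated hearts, 5.46, 6.46, 5.50, 6.23 and 5.11 in untreated hearts and 5.86, 4.13, 6.99, 5.45 and 6.18 in db/+ hearts. It was the highest of the 82 genes relative to the reference, and its groups overlapped throughout, with a difference of −0.01 ± 0.44 between treated and db/+ hearts (adjusted p = 0.99) that changed sign with the processing. Its lowest and highest values were in db/+ hearts 2 and 3, which were also the lowest and highest for the cardiomyocyte markers; the part of this in the spread of Rpl3l was not tested. Both genes were read by 1 probe each in this description, whose first bases are shown because the paralogues must be told apart by sequence (Rpl3 on chromosome 15, Rpl3l on chromosome 17).
Rpl3: attggcgtgacaaaaggcaaagggtacaaa
Rpl3l: ggctgcattgcaggtaccaagaagcgagtg

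In the other paralogue pairs the values of the brightest probes stand side by side, and no difference between paralogues was tested. Rpl22 fell by 0.75 ± 0.20 in treated against db/+ hearts (limma, adjusted p = 0.033), while Rpl22l1 was at −0.35 (0.28). A second Rpl22 probe was at −0.29 without a call (0.12), so the order within this pair depended on the probe. Rps27 fell by 0.91 as above, while Rps27l was at −0.38 (0.12). Rpl7 fell by 0.85 as above, while Rpl7l1, whose product acts in ribosome assembly, was at −0.42 (0.073). A second Rpl7l1 probe was at −0.05 without a call (0.75). Rpl36a was at −0.63 (0.076) and Rpl36al, without flagged spots of untreated hearts 1 and 5, at −0.25 (0.44), neither of them called. Further Rpl36a probes were called lower, at −0.83 (0.039) and −0.81 (0.03), so the call of Rpl36a depended on the probe.

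The level against the reference differed widely among the genes in db/+ hearts, with a median of −0.94. The highest after Rpl3l were Rps29 at 0.73 ± 0.73, Rpl11 at 0.44 ± 0.37 and Rpl21 at 0.40 ± 0.19 (SD, n = 5 each), which lay within their spread of each other. The lowest were Rpl31 at −2.48 ± 0.34, Rpsa at −2.05 ± 0.25, Rpl14 at −2.02 ± 0.17 and Rps26 at −1.88 ± 0.28 (SD, n = 5 each), of which Rpsa, Rpl14 and Rps26 were within their spread of each other. These are ratios to the reference and give no order of abundance between genes. Rpl21 was the only one of the 82 genes above 0 in treated minus db/+ hearts, at 0.19 (adjusted p = 0.26; without flagged spots of untreated hearts 1 and 5), but a second Rpl21 probe gave −0.13, and in the heart dye alone the brightest probe gave −0.03. Rps29 had −0.70 without a call (adjusted p = 0.15), and its values of 1.66 and 1.35 in db/+ hearts 3 and 4 stood above all other hearts.

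Second probes bore on the same genes. For 38 genes, 49 further probes were tested, all 49 of them below 0 in treated minus db/+ hearts with a median of −0.43, and 11 were called lower and 0 higher. In 48 of the 49 the sign was that of the brightest probe, the exception being Rpl21. Over all 131 tested probes of the family 53 were called lower, and Rpl10 was one of 2 genes called at every probe. A further 49 probes carried other gene names but were described on the array as ribosomal proteins; chosen after their values were seen, they had medians of −0.51 in treated minus db/+, −0.36 in treated minus untreated and −0.14 in untreated minus db/+ hearts. Ribosomal protein genes have many processed pseudogenes, and whether these probes also read RNA from such copies was not tested.

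**Figure D4:**
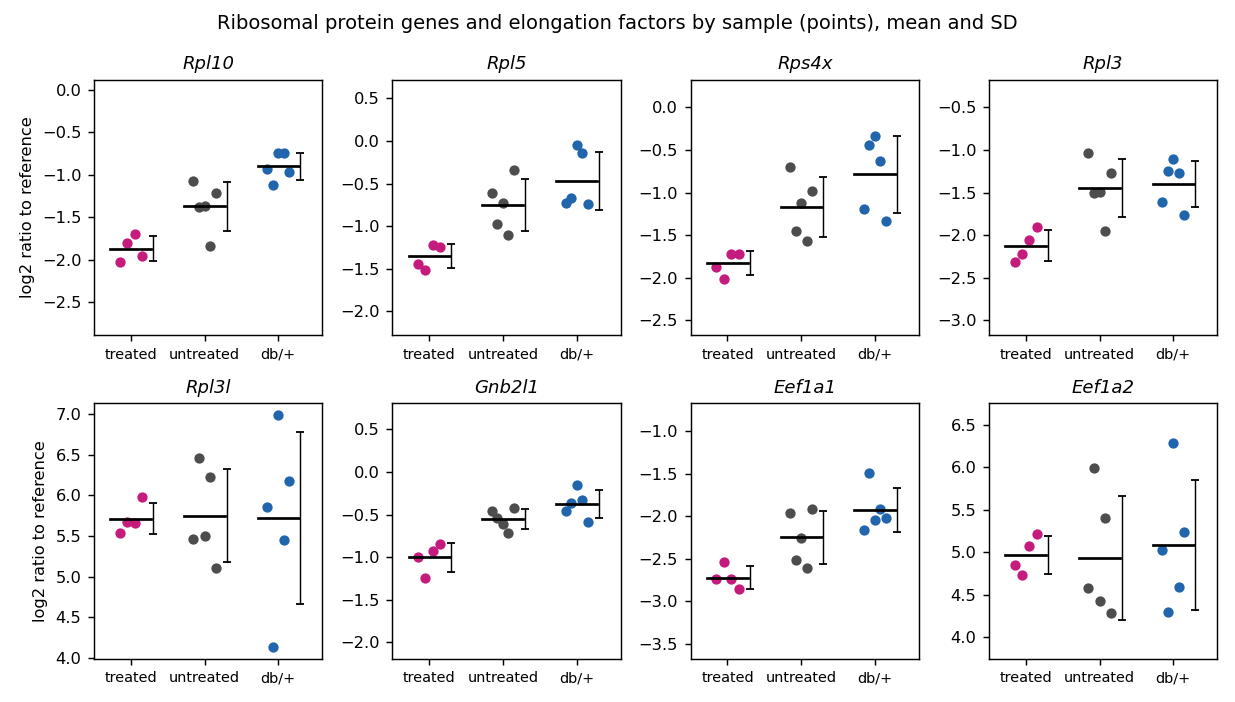
Log2 ratio of heart to reference RNA (y axes, each panel with its own range) by sample for Rpl10, Rpl5, Rps4x, Rpl3, Rpl3l, Gnb2l1, Eef1a1 and Eef1a2 in treated, untreated and db/+ hearts, with the mean (line) and SD (bar); treated hearts 3 and 4 are drawn as their mean. Treated samples lie below all db/+ samples except in the panels of Rpl3l and Eef1a2, where the groups overlap.

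The rest of the translation machinery was set beside the family in treated minus db/+ hearts. For each list below, the shares of all tested probes called in this comparison were 4.21% lower and 4.49% higher. A list of 4 array names of ribosomal proteins outside the naming rule had a median of −0.59, and 3 of them fell; of these, Arbp is an older name of Rplp0 and adds no gene to the family. Gnb2l1, whose product Rack1 sits on the small subunit as a scaffold for signalling proteins, gave −1, −1.24, −1.04, −0.81 and −0.85 in treated hearts, −0.46, −0.54, −0.61, −0.72 and −0.42 in untreated hearts and −0.46, −0.36, −0.15, −0.33 and −0.59 in db/+ hearts. Treated hearts were below both other groups without overlap, and the difference from db/+ was −0.62 (limma, adjusted p = 0.005). Arbp fell by 0.69 (0.022) and Fau, made as a fusion with a ubiquitin-like protein, by 0.55 (0.038).

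A list of 8 genes named Eef and a digit held elongation factors, the kinase Eef2k, and Eef1e1, which was also listed with the tRNA synthetases. All 7 genes other than Eef2k were below 0 and 2 of them fell, while Eef2k rose. Eef1a1, which brings aminoacyl-tRNA to the ribosome, gave −2.74, −2.54, −2.78, −2.70 and −2.86 in treated hearts, −1.96, −2.51, −2.25, −2.61 and −1.91 in untreated hearts and −2.16, −1.49, −2.05, −1.92 and −2.02 in db/+ hearts. Treated hearts were below all db/+ hearts, by 0.79 ± 0.17 (SE; limma, adjusted p = 0.013). Its exchange factor Eef1b2 fell by 0.60 (0.013). Eef1a2, the form that adult heart and skeletal muscle use, was at −0.12 (0.87) with overlapping groups, like Rpl3l. Eef2k, the kinase that slows elongation by phosphorylating eEF2, rose by 0.88 (0.0011), with 0.56, 0.45, 0.69, 0.78 and 0.65 in treated hearts, 0.73, 0.46, 0.43, 0.25 and 0.66 in untreated hearts and −0.08, −0.18, −0.51, −0.48 and −0.18 in db/+ hearts. Both db/db groups lay above all db/+ hearts, and untreated against db/+ gave 0.79 (adjusted p = 0.0016).

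Other lists had medians near 0. Of 52 initiation factors 0 were called in treated against db/+ hearts (median −0.01), although Eif4e, the cap-binding protein, fell by 0.43 in untreated against db/+ hearts (limma, adjusted p = 0.030). Of 75 mitochondrial ribosomal proteins, which serve the separate ribosome inside mitochondria, 6 rose and 0 fell (median 0.03), where 4.49% of all probes were higher, among them Mrps34 by 0.59 (0.017; without the flagged spot of db/+ heart 4), Mrpl28 by 0.47 (0.015) and Mrps18a by 0.46 (0.017). Mrpl28 was also called in untreated against db/+ hearts, at 0.38 (limma, adjusted p = 0.030). Of 23 genes listed with the cytosolic tRNA synthetases 0 were called in treated against db/+ hearts (median −0.01).

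Of 103 genes of ribosome biogenesis, 8 fell and 0 rose (median −0.16), where 4.21% of all probes were lower, among them Npm3, a nucleolar chaperone, by 0.63 (limma, adjusted p = 0.014), Nhp2l1 by 0.44 (0.023; without flagged spots of untreated heart 5 and db/+ heart 2) and Nol5, an older name of the box C/D snoRNP protein Nop58, by 0.57 (0.035). Of 14 genes of RNA polymerase I, which transcribes ribosomal RNA, Polr1e alone fell, by 0.59 (0.010), with a list median of −0.10. Npm3 (−0.57, limma, adjusted p = 0.017) and Polr1e (−0.42, 0.037) were also called in untreated against db/+ hearts.

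Of 29 genes of mTOR and S6 kinase signalling, 2 fell and 2 rose (median 0.09), where 4.21% of all probes were lower and 4.49% higher. Ddit4, an inhibitor of mTOR complex 1, had the largest difference of these lists: 0.95, −0.43, −0.03, 0.02 and −0.94 in treated hearts, 0.18, 0.20, −0.91, −0.68 and −0.08 in untreated hearts and −1.80, −1.28, −2.04, −2.05 and −2.25 in db/+ hearts. All db/db hearts lay above all db/+ hearts, with a difference of 1.78 for treated (limma, adjusted p = 0.0088) and 1.63 for untreated against db/+ (0.011). Frap1, the older name of Mtor itself, rose by 0.76 in treated against db/+ hearts (0.014), and Ddit4l, a relative of Ddit4, fell by 1.06 (0.005; without flagged spots of untreated heart 4 and db/+ heart 2). Frap1 (0.70, limma, adjusted p = 0.016) and Ddit4l (−0.75, 0.025) were also called in untreated against db/+ hearts. With slide as a fixed block, nearly all calls of the array were lost, so these calls carry the same limit as those of the ribosomal protein genes.

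**Figure D5:**
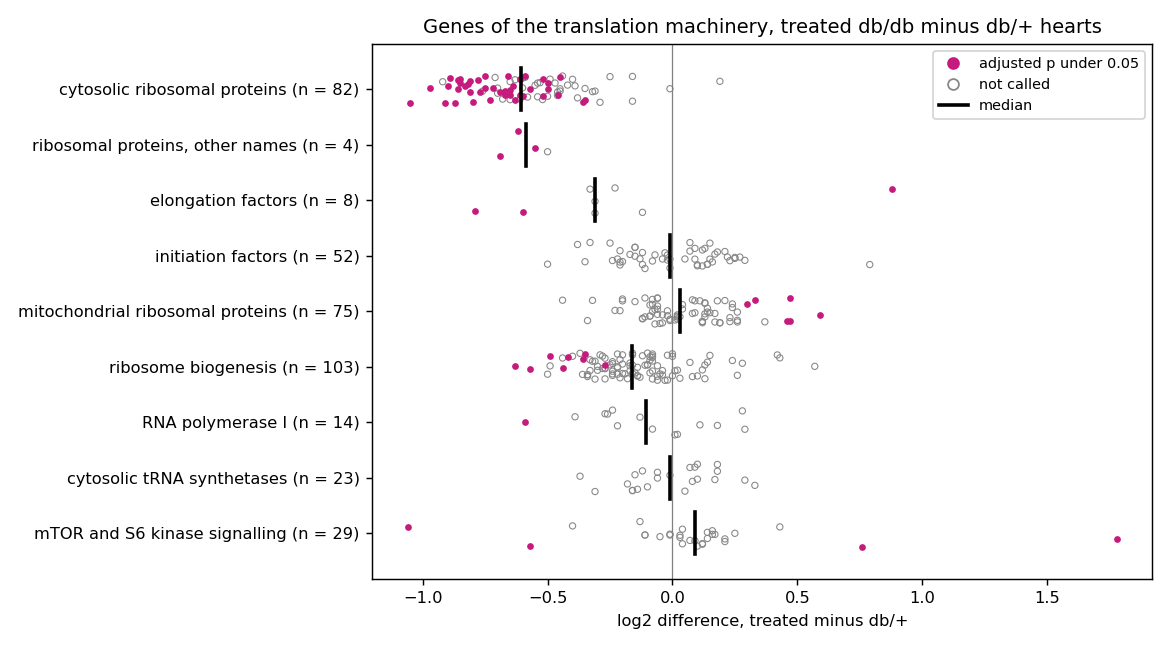
Log2 difference of treated minus db/+ hearts (x axis) for each gene (points, filled where the adjusted p is under 0.05) of 9 lists of the translation machinery (rows), with list medians as bars. The ribosomal proteins lie around −0.61 and the 4 under other names around −0.59, while the medians of the mitochondrial ribosomal proteins (0.03) and initiation factors (−0.01) lie near 0.

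Genes with and without the pyrimidine motif near the start differed little: the median of treated minus db/+ was −0.62 in the 36 genes with it, 21 of them called, and −0.57 in the 25 without, 12 of them called.

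Markers of other cells moved with some groups. Beside the counts below, 4.21% of all tested probes were called lower and 4.49% higher in treated against db/+ hearts. In untreated against db/+ hearts these shares were 3.39% and 4.37%. Of 6 B cell markers, 3 fell in treated against db/+ hearts and 3 in untreated against db/+ hearts, and their summed signal was 4780 to 6350 in treated, 3810 to 6360 in untreated and 4910 to 8090 in db/+ hearts. Of 6 genes of proliferating cells, 2 fell in each of these comparisons (list median −0.40 in treated against db/+). Of 4 adipocyte markers 2 fell in each, and the summed signal of 3 of them was 123 to 181 in treated, 107 to 243 in untreated and 384 to 2570 in db/+ hearts. Of 10 hepatocyte markers 4 rose in untreated against db/+ hearts and 0 were called in treated against db/+ hearts. Of 6 T and NK cell markers 1 fell in treated against db/+ hearts and 0 were called in the others, and 0 of the markers of neutrophils, macrophages, erythroid cells, endothelium, fibroblasts, skeletal muscle and cardiomyocytes were called in any comparison. With the mean hepatocyte marker level entered as a covariate, added after the data were seen, 25 of the 82 ribosomal protein genes were called lower in treated against db/+ hearts, and without db/+ heart 3 and untreated heart 2, the hearts with the highest cardiomyocyte and hepatocyte markers, 17 did. Over all probes, 831 were called lower with the covariate and 804 without these hearts, against 1162. The part of B cells, adipocytes and proliferating cells in the ribosomal protein levels was not tested.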

How the data were processed

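Heart RNA (Cy5) and Universal Mouse Reference RNA (Cy3) were hybridised to Agilent arrays, 1 heart per array. Per the file headers, the authors extracted spot intensities with Feature Extraction 9.5.1.1 (9.5.1 in the submitters' notes), subtracted background with spatial detrending and normalized the dyes by LOWESS. The deposited value of a spot is the log10 ratio of processed Cy5 to Cy3 intensity, converted here to log2. The series value table held the same ratios. Control spots and outlier-flagged spots (0.922% of spots) were left out, spots of a probe were averaged, and a probe was tested if its heart signal passed Feature Extraction's well-above-background test in 4 or more of the 5 hearts of any group. The number of arrays limits the precision.

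All 14 samples entered 1 limma fit (lmFit, eBayes; limma 3.58.1, R 4.3.3) with 11 residual degrees of freedom, and p-values were adjusted over all 27593 tested probes by the Benjamini-Hochberg method. The study's methods name SAM, run here as an alternative with 100 splits. "Called" means an adjusted p under 0.05. The study states that 15 RNA samples came from separate hearts. The fit, but not the steps before it, was tested on simulated data with known changes. In these data the probes varied independently of each other and slides had no effect.

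Genes named with values were the called genes of the family with the smallest p in each comparison (up to 10 in each direction, or 4 where none was called), those with the 4 highest and 4 lowest ratios in db/+ hearts, paralogue pairs, and genes with known separate roles, and in the lists those called with the smallest p; some genes that met this rule are not reported here by name. Genes, lists and cell type markers were chosen with earlier results of these data known, so they are no independent evidence. Names matched RefSeq for all 82 genes (77 by accession, 5 by symbol); Rps3a is now Rps3a1. Alternatives covered background correction, centring, the heart dye alone, filters on dim or saturated probes, the probe standing for a gene, slide and replicate blocks, array weights, the samples in the fit, and each heart left out in turn. Keeping flagged spots, leaving out db/+ heart 3 with untreated heart 2, and the hepatocyte covariate were added after the data were seen. Same-numbered hearts did not deviate together (15 pairs, correlations of −0.18 to 0.06), so replicate numbers do not pair samples.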

Additional observations from a re-analysis of the deposited data

Results flagged for a closer look

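Of 175 groups of values, 2 had a sample far from the others by Dixon's criterion, which chance alone gives in about 1 of 20 groups. Ddit4l had a log2 ratio of 0.98 in untreated heart 1, where the nearest of the other untreated hearts was at 0.37 and the lowest at 0.27 (4 hearts, since the spot of heart 4 was left out). Frap1 had 1.49 in the mean of treated hearts 3 and 4, where the other treated hearts were between 1.33 and 1.36, a narrow range. None of the ribosomal protein genes among these groups had such a heart. Rps18, Rps19bp1 and Rps3a, although named above, were not among the genes checked.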

How the results depend on the processing

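Treated against untreated hearts had 0 of the 82 ribosomal protein genes called in every alternative, and no alternative gave one of them a call upward. SAM left out those with a missing value in the samples compared. Most alternatives called 0 of all probes in treated against untreated hearts, and the most were 30 lower and 106 higher of 27593, in the heart dye alone. In treated against db/+ hearts the 42 calls became 12 with normexp correction, 27 without a filter on dim probes, 0 with slide as a fixed block (median −0.17), 72 with slide as a random block (estimated correlation −0.11), 7 with the replicate block, 17 without db/+ heart 3 and untreated heart 2 together and 25 with the hepatocyte covariate, while SAM called 49. Over all probes, lower calls were 2629 with slide as a random block, 1511 by SAM and 958 of 41174 without the filter, against 1162. Leaving out single hearts gave 8 to 52 calls and medians of −0.69 to −0.51. In untreated against db/+ hearts the 1 call became 2 with normexp correction or with treated hearts 3 and 4 as separate samples, 3 with a filter on both dyes, 10 with slide as a random block, and 0 with the heart dye alone, without a filter, with slide as a fixed block (median 0.11), the replicate block, only the 2 groups compared in the fit, array weights, the mean over probes, SAM, or both added alternatives that leave out hearts or use the covariate. Lower calls over all probes in this comparison were 2261 with slide as a random block and 16 with slide as a fixed block, against 935. They were 947 with normexp correction, 1151 with treated hearts 3 and 4 separate and 1128 of 21458 with the filter on both dyes. The heart dye alone gave 878, no filter 780 of 41174, the replicate block 532, the 2 groups alone 402 and array weights 665. The mean over probes gave 685 of 18680 genes, SAM 1011, and the added alternatives 595 without the 2 hearts and 99 with the covariate. Leaving out single hearts gave 0 to 3 calls and medians of −0.30 to −0.13, and −0.45 to −0.29 in treated against untreated hearts. The replicate block rests on numbers that do not pair the hearts; with it the medians were −0.60 in treated against db/+, −0.33 in treated against untreated and −0.24 in untreated against db/+ hearts, and 484 of all probes were lower and 677 higher in treated against db/+ hearts.

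In treated against db/+ hearts, Rpl3l turned to 0.84 with normexp correction, 0.05 with the replicate block, 0.18 with array weights, 0.31 without db/+ heart 3 and untreated heart 2 together, 0.04 with the hepatocyte covariate, and ranged between −0.41 and 0.31 when single hearts were left out (0.03 without db/+ heart 1, 0.31 without db/+ heart 3, 0.11 without db/+ heart 5, 0.05 without treated heart 1, 0.01 without treated heart 3). Rpl21 turned to −0.03 in the heart dye alone. With slide as a fixed block, Rpl13a turned to 0.06, Rpl22l1 to 0.21, Rpl36al to 0.30, Rpl39 to 0.43 and Rps27l to 0.02; the cause was not tested. Rpl10, Rpl5, Rpl7 and Rpl9 lost their call in treated against db/+ hearts only with the fixed slide block, where their differences were −0.69, −0.80, −0.10 and −0.36. The brightest probes of all 82 genes were well above background in both dyes on all 15 arrays. The slides largely follow the groups, and the calls against db/+ hearts carry that limit.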
